A study of Rattus norvegicus with 12 samples.

Results

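The genes described here belong to the unfolded protein response and the integrated stress response of rat vascular smooth muscle cells (RVSMCs). They were a list of 37 genes matched by symbol to the probe sets of a rat expression array. Of these, 35 had a probe set among the 23188 on the array, and all 35 reached the signal needed for testing. *Manf*, a secreted ER stress factor, and *Edem1*, a lectin of ER-associated degradation, had no probe set with their symbol. The RVSMCs were digested from the thoracic aorta, stripped of endothelium, of male Sprague-Dawley rats aged 12 weeks. They were used at passage 3 or later. They were transfected for 48 h with 100 nM of a GapmeR, an antisense oligonucleotide that leads to cleavage of its target RNA. The 4 groups of 3 arrays each were *Alivec*Gap with AngII, NCGap with AngII, *Alivec*Gap with PBS and NCGap with PBS. *Alivec*Gap targets the long non-coding RNA *Alivec* and NCGap is a non-targeting GapmeR, so every group carried a GapmeR and no group was left untransfected. After transfection the cells received 100 nM angiotensin II (AngII), the vasoactive peptide hormone, or PBS, the vehicle, for 3 h. The methods of the study give a period without serum for transfected cells before AngII. *Alivec* was targeted with 1 GapmeR sequence, and no probe set carried its name, so its own level was not read from these arrays. The study measured it by quantitative PCR and reports a partial reduction, so some *Alivec* RNA remained.

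Proteins of the secretory pathway fold in the endoplasmic reticulum (ER) with the help of chaperones, and an excess of unfolded protein there starts the unfolded protein response through the sensors IRE1 (*Ern1*), ATF6 (*Atf6*) and PERK (*Eif2ak3*). IRE1 splices the mRNA of *Xbp1*, ATF6 is cleaved to a transcription factor, and both routes raise chaperone and degradation genes through ER stress response elements. PERK and its sister kinases phosphorylate the translation factor eIF2α, which lowers general translation while *Atf4* mRNA is translated more. ATF4 then acts on C/EBP-ATF response elements in genes of amino acid synthesis, transport and feedback, and this arm, shared by stresses that arise outside the ER, is called the integrated stress response.

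The elements of both arms can be read in the promoters of the genes, and the windows that hold them are shown because the median responses of the ER chaperones and the ATF4 targets to AngII lay apart. RefSeq promoters (build GRCr8, 250 bases before to 50 bases after the start site) were matched for 31 of the 35 members. They were searched on both strands for the ER stress response element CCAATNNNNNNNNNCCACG, the unfolded protein response element TGACGTGG and the C/EBP-ATF response element TGATGNAAN. The unfolded protein response element can overlap the last bases of the ER stress response element, and each was counted by itself. The ER stress response element was found in 7 members, with 15 bases shown on each side, on the strand of the gene, and the fixed letters in capitals.
*Hspa5* (chr3:38452958-38453006, gene on the + strand): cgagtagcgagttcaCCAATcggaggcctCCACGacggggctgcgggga
*Hsp90b1*, upstream match (chr7:23012436-23012484, − strand): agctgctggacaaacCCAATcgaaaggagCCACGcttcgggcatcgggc
*Hsp90b1*, downstream match (chr7:23012332-23012380, − strand): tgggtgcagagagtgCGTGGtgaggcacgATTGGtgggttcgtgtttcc
*Canx* (chr10:35158054-35158102, − strand): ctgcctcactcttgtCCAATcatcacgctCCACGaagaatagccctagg
*Calr* (chr19:40213120-40213168, + strand): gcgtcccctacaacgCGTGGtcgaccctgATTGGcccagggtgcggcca
*Creld2* (chr7:121789224-121789272, + strand): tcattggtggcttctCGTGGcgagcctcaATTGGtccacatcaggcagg
*Dnajc3* (chr15:102432519-102432567, + strand): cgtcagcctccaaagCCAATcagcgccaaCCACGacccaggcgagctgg
*Xbp1* (chr14:84604543-84604591, + strand): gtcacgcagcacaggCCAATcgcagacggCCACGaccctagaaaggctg

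The C/EBP-ATF response element was found in 5 members, shown in the same way.
*Chac1* (chr3:126795948-126795986, + strand): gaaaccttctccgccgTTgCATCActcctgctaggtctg
*Trib3* (chr3:161275532-161275570, − strand): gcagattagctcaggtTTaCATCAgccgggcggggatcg
*Nupr1* (chr1:190645934-190645972, − strand): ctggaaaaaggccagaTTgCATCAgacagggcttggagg
*Herpud1* (chr19:10614869-10614907, − strand): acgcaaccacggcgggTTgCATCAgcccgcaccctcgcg
*Ppp1r15b* (chr13:47129807-47129845, + strand): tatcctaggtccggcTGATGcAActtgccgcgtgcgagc
A match is a description of the letters and not a measured binding site.

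The ER stress response element was present in 22 of all 33469 rat promoters of the same length, or 0.0657%. Among members it was in 6 of the 10 ER chaperones with a promoter and in 0 of the 14 ATF4 targets. Chaperone genes are known to be raised through this element, so its presence in them is a description and no independent finding. The C/EBP-ATF response element was present in 3.97% of all promoters, in 3 of the 14 ATF4 targets and in 0 of the 10 chaperones. The unfolded protein response element was present in 0.595% of all promoters and in 0 of the 31 members. The shares over all promoters count promoters and not genes, and they include promoters of members.

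**Figure D1:**
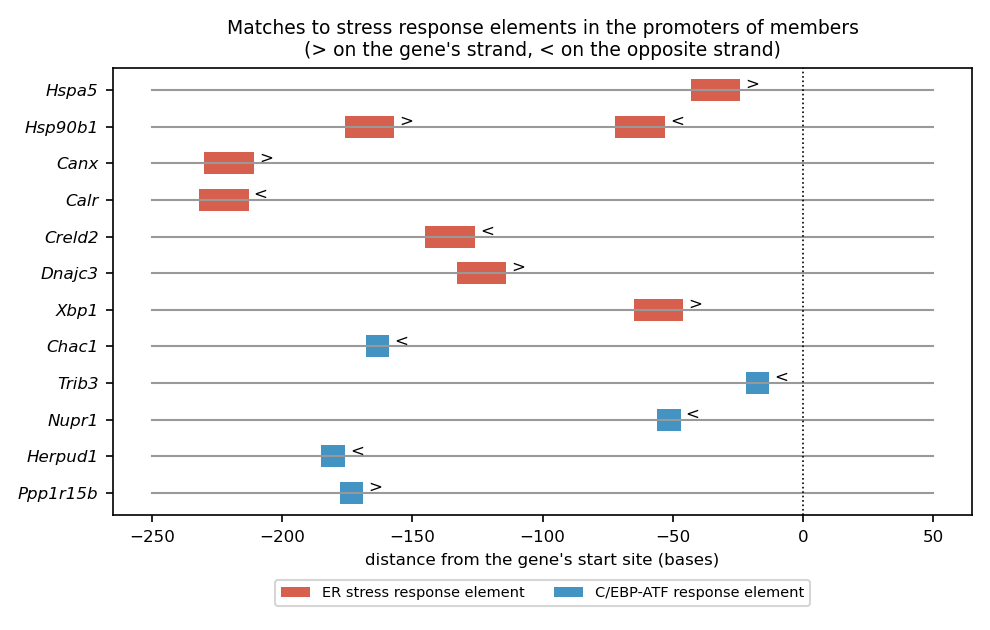
Matches to the ER stress response element (red) and the C/EBP-ATF response element (blue) in the promoters of 12 members, by distance in bases from the start site of the gene. Grey lines span the 300 bases searched, and arrowheads give the strand of the match; the 6 chaperones and *Xbp1* hold the first element and the other 5 genes the second.

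Over all 23188 probe sets on the array, array medians of the log2 signal lay between 6.68 and 6.76, and arrays of 1 group correlated at 0.992 to 0.995. The methods call the replicates independent, and the p values given here cover the variation among these arrays only. All 8 smooth muscle markers were well above the signal floor, a log2 signal of 6. With AngII 3 of the 8 (37.5%) were lower after *Alivec*Gap and 5 (62.5%) after NCGap, where 15.6% and 17.9% of all tested probe sets were lower. In the mean of both treatments 2 of the 8 (25%) were lower with *Alivec*Gap than with NCGap, where 1.65% of all tested probe sets were lower. Their summed signal, as log2, was 14.86 to 14.92 in *Alivec*Gap with AngII, 14.94 to 14.96 in NCGap with AngII, 14.95 to 15.07 in *Alivec*Gap with PBS and 15.11 to 15.14 in NCGap with PBS. Of the endothelial markers 6 of 8 lay below a log2 signal of 6, among them *Pecam1* and *Cdh5*, while *Esam* (mean 7.33) and *Cldn5* (6.41) lay above it. Their sums were 8.69 to 8.97 over all arrays. Of the 8 leukocyte markers with a probe set 6 lay below it, among them *Ptprc*, while *Cd74* (mean 8.54) and *Cd68* (7.09) lay above it. The leukocyte sums were 9.29 to 9.49. The 6 measured fibroblast markers summed to 11.64 to 11.77, 11.28 to 11.50, 11.82 to 11.97 and 11.61 to 11.68 in the same order of groups as the muscle markers, and *Dcn* and *Mfap5* among them were higher with *Alivec*Gap than with NCGap under AngII. The part of these markers in the results below was not tested, and in bulk RNA fewer cells of a type and less RNA per cell cannot be told apart.

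AngII raised most genes of the integrated stress response and left most ER chaperones without a detectable change. With *Alivec*Gap, 20 of the 35 members (57.1%) passed as higher with AngII (limma, adjusted p under 0.05), where 10.8% of all tested probe sets were higher. *Eif2ak3* alone was lower, where 15.6% of all tested probe sets were lower. With NCGap, 22 members (62.9%) were higher, beside 13.3% of all tested probe sets, and *Eif2ak3* was again the only member lower, beside 17.9%. The median change of the 35 members was 0.36 on the log2 scale with *Alivec*Gap and 0.44 with NCGap, beside -0.04 and -0.05 over all tested probe sets. The 20 members higher with *Alivec*Gap were all among the 22 higher with NCGap, and the other two were *Nupr1* and *Dnajc3*.

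**Figure D2:**
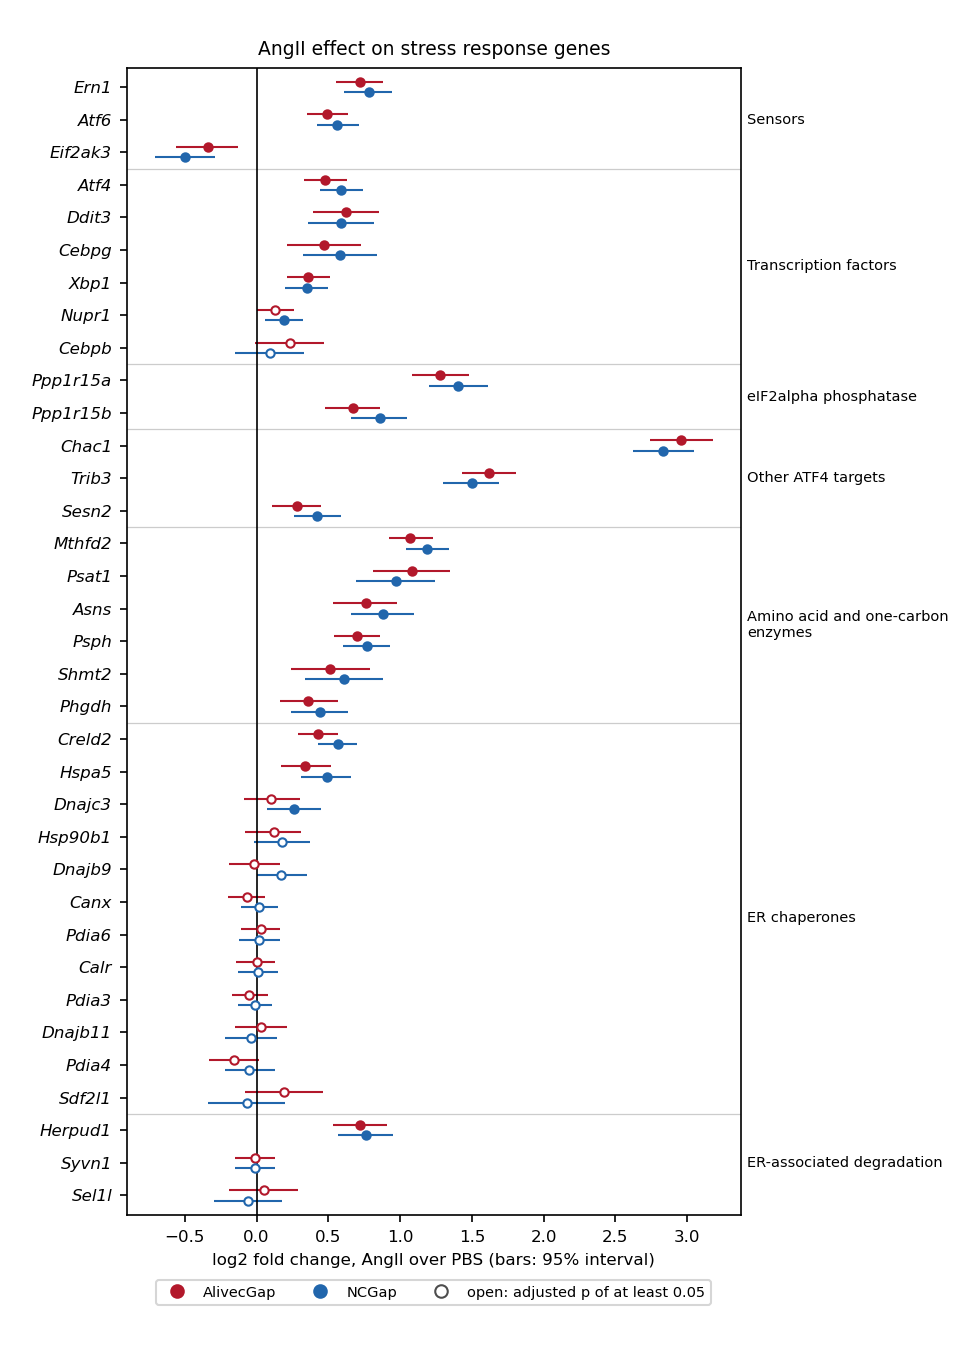
Log2 fold change of the 35 measured members, AngII over PBS, with *Alivec*Gap (red) and NCGap (blue); bars are 95% intervals and open points have an adjusted p of at least 0.05. *Chac1* lies near 2.9 with both GapmeRs, and 9 of the 12 chaperones with NCGap and 10 of the 12 with *Alivec*Gap have open points.

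The sensors moved in both directions. *Ern1*, which codes for the kinase and RNase IRE1, had log2 signals of 7.97, 8.18 and 8.18 in *Alivec*Gap with AngII, 8.15, 8.24 and 8.23 in NCGap with AngII, 7.46, 7.37 and 7.35 in *Alivec*Gap with PBS, and 7.51, 7.42 and 7.36 in NCGap with PBS. Every AngII array lay above every PBS array, and *Ern1* rose 1.64-fold with *Alivec*Gap (log2 change 0.72, SE 0.0762, adjusted p = 2.8e-05) and 1.71-fold with NCGap (0.78, SE 0.0762, adjusted p = 1.1e-05). *Atf6*, the membrane-bound transcription factor, had 10.45, 10.57 and 10.51 in *Alivec*Gap with AngII, 10.61, 10.61 and 10.59 in NCGap with AngII, 10.02, 9.97 and 10.05 in *Alivec*Gap with PBS, and 10.05, 9.94 and 10.13 in NCGap with PBS. The AngII and PBS arrays again did not overlap, with rises of 0.49 with *Alivec*Gap (adjusted p = 0.00019) and 0.56 with NCGap (adjusted p = 5e-05).

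*Eif2ak3*, the gene of the eIF2α kinase PERK, went the other way. Its log2 signals were 7.97, 8.12 and 7.88 in *Alivec*Gap with AngII, 8.10, 8.25 and 7.87 in NCGap with AngII, 8.31, 8.43 and 8.25 in *Alivec*Gap with PBS, and 8.56, 8.62 and 8.54 in NCGap with PBS. All AngII arrays were below the PBS arrays of the same GapmeR, although the highest NCGap array with AngII reached the lowest *Alivec*Gap array with PBS. *Eif2ak3* fell to 78.9% of its PBS signal with *Alivec*Gap (log2 change -0.34, SE 0.0982, adjusted p = 0.022) and to 70.7% with NCGap (-0.50, adjusted p = 0.0021). The call with *Alivec*Gap was lost without *Alivec*Gap AngII replicate 1 (adjusted p = 0.062) or 3 (0.082), and without *Alivec*Gap PBS replicate 1 (0.051) or 2 (0.091). It was also lost with the arrays quantile normalized once more (log2 change -0.29, adjusted p = 0.078).

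Of the 6 stress transcription factors, 4 rose with *Alivec*Gap and 5 with NCGap. *Atf4*, the central factor of the integrated stress response, had log2 signals of 12.15, 12.32 and 12.21 in *Alivec*Gap with AngII, 12.28, 12.33 and 12.18 in NCGap with AngII, 11.70, 11.81 and 11.72 in *Alivec*Gap with PBS, and 11.64, 11.68 and 11.71 in NCGap with PBS. The lowest AngII array was thus above the highest PBS array, and *Atf4* mRNA rose 1.4-fold with *Alivec*Gap (log2 change 0.48, adjusted p = 3e-04) and 1.5-fold with NCGap (0.59, adjusted p = 4.5e-05). *Ddit3*, which codes for the pro-apoptotic factor CHOP, had 10.05, 10.13 and 10.09 in *Alivec*Gap with AngII, 9.96, 9.98 and 10.29 in NCGap with AngII, 9.48, 9.28 and 9.65 in *Alivec*Gap with PBS, and 9.58, 9.42 and 9.47 in NCGap with PBS. It did not overlap between treatments, and rose by 0.62 with *Alivec*Gap (adjusted p = 0.001) and 0.59 with NCGap (adjusted p = 0.0012).

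*Cebpg*, a C/EBP protein that pairs with ATF4, had 7.36, 7.38 and 7.65 in *Alivec*Gap with AngII, 7.51, 7.46 and 7.68 in NCGap with AngII, 6.95, 6.90 and 7.13 in *Alivec*Gap with PBS, and 6.81, 6.86 and 7.22 in NCGap with PBS. Replicate 3 was the highest in every group, and *Cebpg* rose by 0.47 with *Alivec*Gap (adjusted p = 0.012) and 0.58 with NCGap (adjusted p = 0.0029). The call with *Alivec*Gap was lost without *Alivec*Gap AngII replicate 3 (adjusted p = 0.051) or *Alivec*Gap PBS replicate 2 (0.052). *Xbp1*, the substrate of IRE1, had signals of 11.04 to 11.27 over the 6 AngII arrays and 10.71 to 10.84 over the 6 PBS arrays. It rose by 0.36 with *Alivec*Gap and 0.35 with NCGap, and each adjusted p was 0.0022; the array does not separate spliced from unspliced *Xbp1* mRNA. *Nupr1*, a small stress-induced chromatin protein, had a change of 0.13 with *Alivec*Gap that did not pass (adjusted p = 0.13), and rose by 0.19 with NCGap (adjusted p = 0.027). The call of *Nupr1* with NCGap was lost with only the groups compared (adjusted p = 0.088), without a filter on low signal (0.077), and without any one of the NCGap AngII replicates 1, 2 and 3 or the NCGap PBS replicates 2 and 3 (0.059 to 0.073). With *Alivec*Gap *Nupr1* passed without moderation of the spread (adjusted p = 0.021) and with a prior that follows the mean signal (0.012). *Cebpb*, a C/EBP factor of the acute phase and of ER stress, lay near the floor of the test at log2 signals of 5.87 to 6.40, with changes of 0.23 with *Alivec*Gap (adjusted p = 0.16) and 0.09 with NCGap (adjusted p = 0.6).

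Both regulatory subunits of the eIF2α phosphatase, which undo the block on translation, rose with either GapmeR. *Ppp1r15a* (GADD34), the inducible subunit, had log2 signals of 9.79, 9.96 and 9.86 in *Alivec*Gap with AngII, 10.04, 10.08 and 10.07 in NCGap with AngII, 8.56, 8.72 and 8.49 in *Alivec*Gap with PBS, and 8.64, 8.49 and 8.84 in NCGap with PBS. The treatments were almost 1 log2 unit apart even between their nearest arrays, and *Ppp1r15a* rose 2.43-fold with *Alivec*Gap (log2 change 1.28, SE 0.0926, adjusted p = 9.5e-07) and 2.65-fold with NCGap (1.40, SE 0.0926, adjusted p = 3.5e-07). *Ppp1r15b* (CReP), known as the constitutive subunit, had 8.66, 8.75 and 8.80 in *Alivec*Gap with AngII, 8.74, 8.83 and 8.92 in NCGap with AngII, 7.96, 8.15 and 8.10 in *Alivec*Gap with PBS, and 7.91, 7.87 and 8.15 in NCGap with PBS. It rose by 0.67 with *Alivec*Gap (adjusted p = 0.00016) and 0.86 with NCGap (adjusted p = 1.6e-05), with no overlap of treatments.

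The largest changes among the members were in the ATF4 targets *Chac1* and *Trib3*. *Chac1*, an enzyme that degrades glutathione, had log2 signals of 8.87, 8.98 and 9.14 in *Alivec*Gap with AngII, 9.04, 9.21 and 9.35 in NCGap with AngII, 5.88, 6.08 and 6.15 in *Alivec*Gap with PBS, and 6.33, 6.39 and 6.38 in NCGap with PBS. Without AngII the gene was thus near the signal floor, with 1 of the 3 *Alivec*Gap arrays below it. With AngII it rose at least 7.56-fold with *Alivec*Gap when that array is set at the floor (fitted log2 change 2.96, SE 0.099, adjusted p = 1.2e-09) and 7.13-fold with NCGap (2.83, SE 0.099, adjusted p = 1.3e-09). *Trib3*, a pseudokinase that feeds back on ATF4 and binds AKT, had 8.34, 8.68 and 8.52 in *Alivec*Gap with AngII, 8.25, 8.33 and 8.41 in NCGap with AngII, 6.96, 6.90 and 6.82 in *Alivec*Gap with PBS, and 6.78, 6.90 and 6.82 in NCGap with PBS. The gap between treatments was again wider than the spread of any group, and *Trib3* rose 3.08-fold with *Alivec*Gap (adjusted p = 7.7e-08) and 2.82-fold with NCGap (adjusted p = 1.2e-07). Both promoters hold the C/EBP-ATF response element shown above, as does that of *Nupr1*, which had a far smaller change. *Ppp1r15a* and *Mthfd2* rose without a match in the window searched. The part of the element in these rises was not tested. *Sesn2*, an inhibitor of mTORC1 signaling, changed less, with 10.10 to 10.28 over the AngII arrays and 9.72 to 9.95 over the PBS arrays, and rose by 0.28 with *Alivec*Gap (adjusted p = 0.019) and 0.42 with NCGap (adjusted p = 0.0012). The call of *Sesn2* with *Alivec*Gap was lost without *Alivec*Gap AngII replicate 3 (adjusted p = 0.068) or *Alivec*Gap PBS replicate 1 (0.079).

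All 6 enzymes of amino acid and one-carbon metabolism rose with either GapmeR. *Mthfd2*, a mitochondrial folate enzyme, had log2 signals of 8.75, 8.86 and 8.75 in *Alivec*Gap with AngII, 8.86, 8.91 and 8.94 in NCGap with AngII, 7.60, 7.79 and 7.74 in *Alivec*Gap with PBS, and 7.65, 7.72 and 7.77 in NCGap with PBS. Arrays of a treatment lay close together with either GapmeR, and *Mthfd2* rose 2.10-fold with *Alivec*Gap (adjusted p = 3.9e-07) and 2.28-fold with NCGap (adjusted p = 1.1e-07). *Psat1*, the aminotransferase of serine synthesis, had 8.54, 8.63 and 8.84 in *Alivec*Gap with AngII, 8.53, 8.75 and 8.76 in NCGap with AngII, 7.35, 7.73 and 7.70 in *Alivec*Gap with PBS, and 7.71, 7.53 and 7.90 in NCGap with PBS. It was among the more variable members, and rose 2.11-fold with *Alivec*Gap (adjusted p = 5.7e-05) and 1.95-fold with NCGap (adjusted p = 1e-04).

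*Asns*, asparagine synthetase and a classical ATF4 target, had 11.01, 11.21 and 11.08 in *Alivec*Gap with AngII, 11.29, 11.35 and 11.29 in NCGap with AngII, 10.32, 10.51 and 10.20 in *Alivec*Gap with PBS, and 10.35, 10.29 and 10.63 in NCGap with PBS. Treatments did not overlap, and *Asns* rose by 0.76 with *Alivec*Gap (adjusted p = 0.00018) and 0.88 with NCGap (adjusted p = 3.9e-05). *Psph* and *Phgdh*, the last and first enzymes of serine synthesis, and *Shmt2*, which passes the serine carbon to folate, completed the group. *Psph* rose by 0.70 with *Alivec*Gap and 0.77 with NCGap, *Shmt2* by 0.51 and 0.61, and *Phgdh* by 0.36 and 0.44, with adjusted p values between 1e-05 and 0.012. The call of *Phgdh* with *Alivec*Gap was lost without *Alivec*Gap AngII replicate 2 (adjusted p = 0.051).

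**Figure D3:**
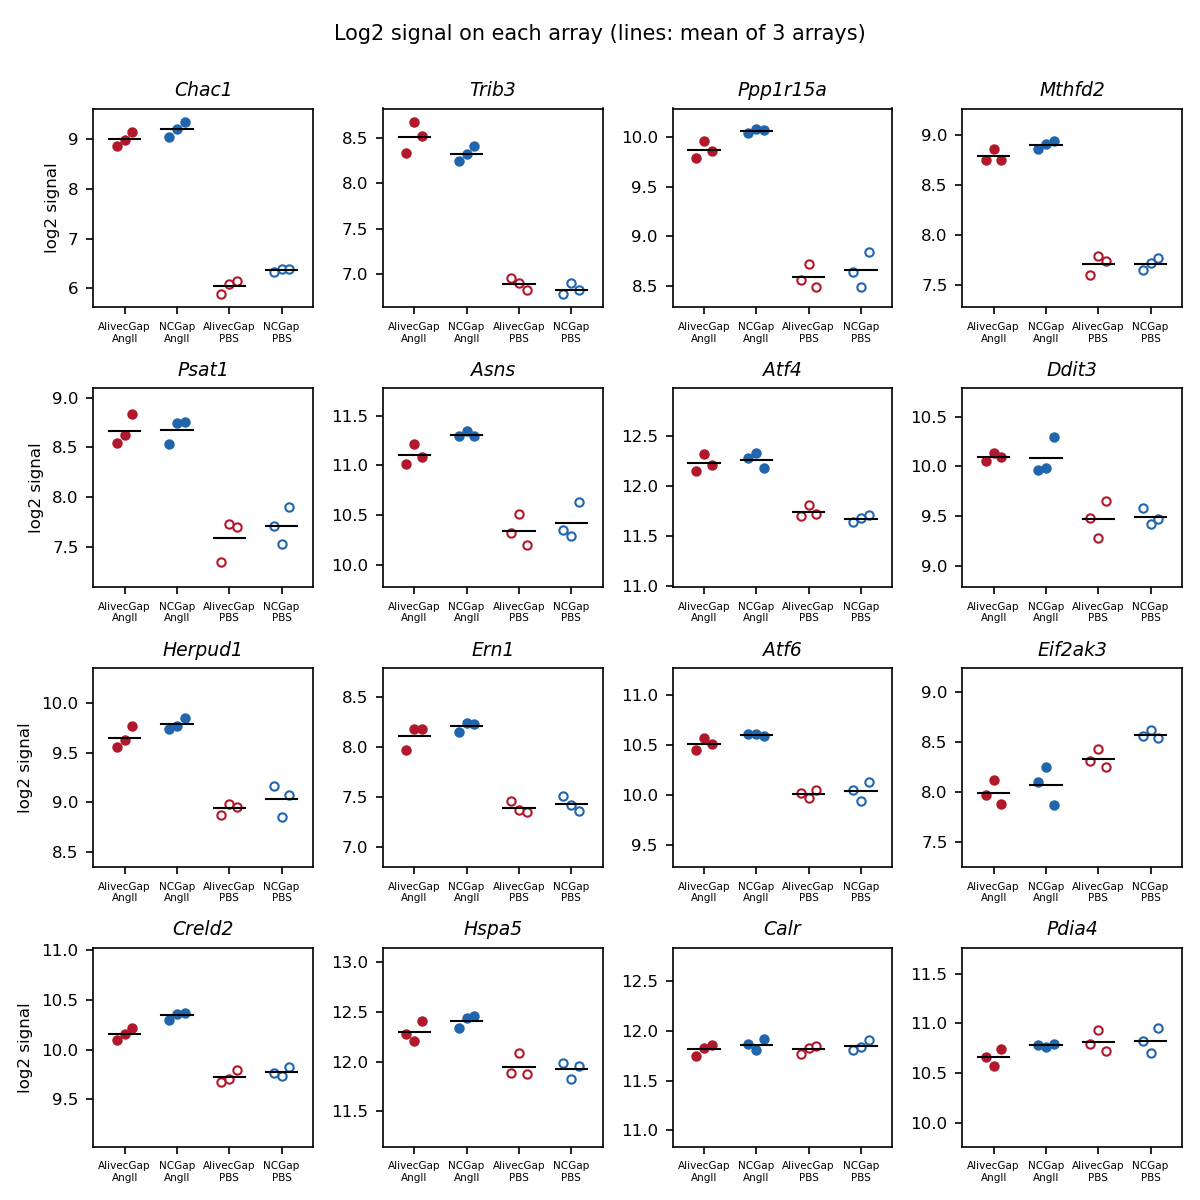
Log2 signal of 16 members on each of the 12 arrays, with *Alivec*Gap in red, NCGap in blue, AngII filled and PBS open; lines are means of 3 arrays and each panel has its own vertical scale. The AngII arrays sit above the PBS arrays in the first 11 panels and for *Creld2* and *Hspa5*, below them for *Eif2ak3* within each GapmeR, and among them for *Calr* and *Pdia4*.

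Of the 12 measured ER chaperones, 2 (16.7%) were higher with AngII after *Alivec*Gap and 3 (25%) after NCGap, and none was lower. These shares stand beside 10.8% and 13.3% higher over all tested probe sets, and 15.6% and 17.9% lower. *Creld2*, an ER stress-inducible protein with disulfide isomerase activity, had log2 signals of 10.10, 10.16 and 10.22 in *Alivec*Gap with AngII, 10.30, 10.36 and 10.37 in NCGap with AngII, 9.68, 9.71 and 9.80 in *Alivec*Gap with PBS, and 9.77, 9.74 and 9.83 in NCGap with PBS. All 4 groups were tight and the treatments separate, with rises of 0.43 with *Alivec*Gap (adjusted p = 0.00037) and 0.57 with NCGap (adjusted p = 3.3e-05). *Hspa5* (BiP), the main Hsp70 chaperone of the ER, had 12.28, 12.21 and 12.41 in *Alivec*Gap with AngII, 12.34, 12.44 and 12.46 in NCGap with AngII, 11.89, 12.09 and 11.88 in *Alivec*Gap with PBS, and 11.99, 11.83 and 11.96 in NCGap with PBS. The treatments did not overlap, and *Hspa5* rose 1.27-fold with *Alivec*Gap (log2 change 0.34, SE 0.0818, adjusted p = 0.0083) and 1.40-fold with NCGap (0.49, SE 0.0818, adjusted p = 0.00073).

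*Dnajc3* (p58IPK), a co-chaperone that also inhibits PERK, had 9.31, 9.48 and 9.51 in *Alivec*Gap with AngII, 9.39, 9.53 and 9.56 in NCGap with AngII, 9.15, 9.46 and 9.37 in *Alivec*Gap with PBS, and 9.25, 9.22 and 9.23 in NCGap with PBS. The treatments overlapped with *Alivec*Gap, where the change of 0.10 did not pass (adjusted p = 0.44), and were apart with NCGap, with a rise of 0.26 (adjusted p = 0.043). The call with NCGap was lost without moderation of the spread (adjusted p = 0.059), without a filter on low signal (0.088), and without any one of 7 arrays, the adjusted p then reaching 0.12 without NCGap AngII replicate 3. Those arrays were *Alivec*Gap AngII replicate 2, NCGap AngII replicates 2 and 3, *Alivec*Gap PBS replicate 3 and all NCGap PBS replicates.

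The other 9 chaperones did not pass in either comparison. *Calr*, the lectin chaperone calreticulin, had 11.75, 11.83 and 11.86 in *Alivec*Gap with AngII, 11.87, 11.81 and 11.92 in NCGap with AngII, 11.77, 11.83 and 11.85 in *Alivec*Gap with PBS, and 11.81, 11.84 and 11.91 in NCGap with PBS. All 4 groups overlapped, and the 95% interval of the AngII effect was -0.14 to 0.13 with *Alivec*Gap and -0.13 to 0.15 with NCGap. *Canx*, the membrane-bound partner of calreticulin, had changes of -0.07 (interval -0.20 to 0.06) and 0.02 (-0.11 to 0.15). The disulfide isomerases *Pdia3*, *Pdia4* and *Pdia6* had changes of -0.05, -0.16 and 0.03 with *Alivec*Gap and -0.01, -0.05 and 0.02 with NCGap. *Hsp90b1* (GRP94), the Hsp90 of the ER, had changes of 0.12 (interval -0.08 to 0.31) with *Alivec*Gap and 0.18 (-0.02 to 0.37) with NCGap, the second with no overlap of treatments; it passed with NCGap under a prior that follows the mean signal (adjusted p = 0.022). The ER Hsp40 proteins *Dnajb9* and *Dnajb11* had changes of -0.02 and 0.03 with *Alivec*Gap and 0.17 and -0.04 with NCGap. *Dnajb9* passed with NCGap when NCGap PBS replicate 3 was left out (adjusted p = 0.02) and with array weights (0.038). *Sdf2l1*, a partner of *Dnajb11*, had the widest intervals of the chaperones, -0.08 to 0.46 with *Alivec*Gap and -0.34 to 0.20 with NCGap. An AngII effect on *Calr* as large as that on *Chac1* or *Trib3* lay outside its interval, whereas small changes of these 9 genes were not detectable with 3 arrays a group.

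ER-associated degradation was split. *Herpud1*, a ubiquitin-like ER membrane protein, had log2 signals of 9.56, 9.63 and 9.77 in *Alivec*Gap with AngII, 9.74, 9.77 and 9.85 in NCGap with AngII, 8.87, 8.98 and 8.95 in *Alivec*Gap with PBS, and 9.16, 8.85 and 9.07 in NCGap with PBS. It did not overlap between treatments, and rose 1.65-fold with *Alivec*Gap (log2 change 0.72, adjusted p = 8.3e-05) and 1.69-fold with NCGap (0.76, adjusted p = 3.9e-05). *Syvn1* (HRD1), the ubiquitin ligase, and *Sel1l*, its adaptor, had changes of -0.01 and 0.05 with *Alivec*Gap and -0.01 and -0.06 with NCGap, all with an adjusted p over 0.7.

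Set side by side, the 14 ATF4 targets had a median AngII effect of 0.66 on the log2 scale with *Alivec*Gap and 0.69 with NCGap, and the 12 chaperones 0.03 and 0.02. The difference of the medians was 0.64 with *Alivec*Gap and 0.66 with NCGap, where the pooled SD of that difference over arrays of 1 group was 0.0421. Read on each array as the median deviation from the NCGap PBS mean, the ATF4 targets lay at 0.55, 0.66 and 0.67 in *Alivec*Gap with AngII, 0.63, 0.77 and 0.75 in NCGap with AngII, -0.10, 0.04 and -0.03 in *Alivec*Gap with PBS, and -0.02, -0.08 and 0.08 in NCGap with PBS. The chaperones lay at -0.01, -0.02 and 0.05, at 0.01, 0.05 and 0.09, at -0.05, 0.08 and -0.02, and at 0.01, -0.04 and 0.04 in the same groups. For the ATF4 targets every AngII array stood above every PBS array, whereas for the chaperones the treatments overlapped. Of the ATF4 targets, 12 of 14 were higher with *Alivec*Gap and 13 of 14 with NCGap. The exceptions were *Nupr1* and *Cebpb* with *Alivec*Gap and *Cebpb* with NCGap.

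**Figure D4:**
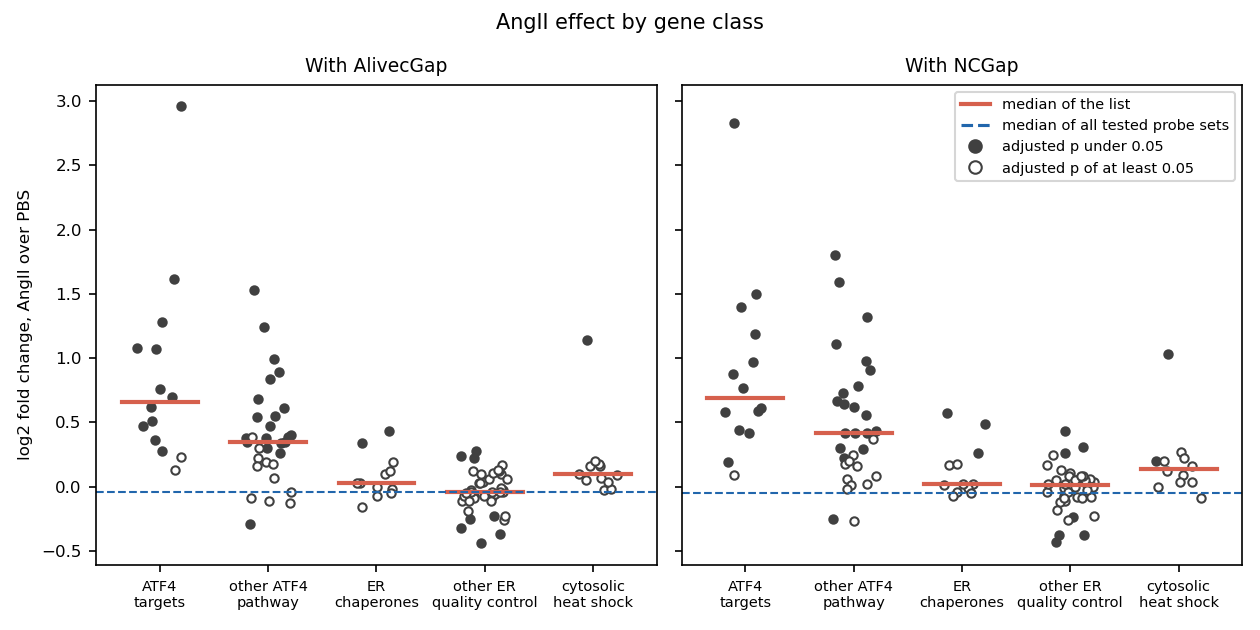
Log2 fold change, AngII over PBS, of each tested gene in 5 lists, with *Alivec*Gap at left and NCGap at right; red lines are list medians, the dashed line is the median of all 14796 tested probe sets, and filled points have an adjusted p under 0.05. The ATF4 targets (medians 0.66 and 0.69) and the other ATF4 pathway genes (0.35 and 0.42) lie above the ER chaperones (0.03 and 0.02) and the other ER quality control genes (-0.04 and 0.01).

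Genes of the same pathways outside the members were counted in the same way. Of 31 other tested ATF4 pathway genes, 19 (61.3%) were higher and 1 lower with either GapmeR, where 10.8% of all tested probe sets were higher with *Alivec*Gap and 13.3% with NCGap, with median changes of 0.35 with *Alivec*Gap and 0.42 with NCGap. *Slc7a5*, the large neutral amino acid transporter, rose by 1.53 with *Alivec*Gap and 1.59 with NCGap, *Mthfd1l*, a mitochondrial formate synthetase, by 0.89 and 1.32, and *Cars1*, cysteinyl-tRNA synthetase, by 0.99 and 1.11. *Vldlr*, a lipoprotein receptor, was the 1 that fell, by 0.29 with *Alivec*Gap and 0.25 with NCGap. Of 40 other tested genes of ER folding and quality control, 3 (7.5%) were higher and 5 (12.5%) lower with *Alivec*Gap, and 3 (7.5%) were higher and 4 (10%) lower with NCGap, with medians of -0.04 and 0.01. Over all tested probe sets 10.8% were higher and 15.6% lower with *Alivec*Gap, and 13.3% and 17.9% with NCGap, so the counts of this list stood near or under the background. The 3 that rose with NCGap were the disulfide isomerase-like *Txndc11* (0.43), the ER oxidase *Ero1a* (0.31) and the chaperone *Hyou1* (0.26), and the lectins *Edem2* and *Erlec1* and the ER-bound factor *Creb3l2* fell there by 0.43, 0.38 and 0.38.

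Of the 8 other tested genes of eIF2α kinases and translation control, 1 (12.5%) was lower with *Alivec*Gap. With NCGap 1 (12.5%) was higher and 2 (25%) were lower. Over all tested probe sets 15.6% were lower with *Alivec*Gap, and 13.3% were higher and 17.9% lower with NCGap, so these few calls stood near the background. *Eif2ak2* (PKR), the kinase activated by double-stranded RNA, fell by 0.62 with *Alivec*Gap and 0.72 with NCGap. The heme-regulated kinase *Eif2ak1* fell by 0.30 with NCGap, and *Eif2s1*, which codes for eIF2α itself, rose by 0.23 there. Among 12 tested cytosolic heat shock genes, 1 (8.33%) was higher with *Alivec*Gap and 2 (16.7%) with NCGap. These shares were near the 10.8% and 13.3% of all tested probe sets. *Hspa1a*, the inducible Hsp70, rose 2.21-fold with *Alivec*Gap and 2.05-fold with NCGap. *Hspa4*, an Hsp110 relative, rose by 0.20 with NCGap, with no other call in the list. *Hspa1a* has a near-identical copy, *Hspa1b*, whose RNA its probes may also bind.

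The promoter matches can be set beside these responses. With NCGap, 4 of the 7 members with an ER stress response element rose with AngII, *Creld2*, *Hspa5*, *Xbp1* and *Dnajc3*, while *Hsp90b1*, *Canx* and *Calr* did not pass. This count stood near the share over all 35 members, of which 22 (62.9%) rose with NCGap. The part of either element in the responses was not tested. Of the 5 members with a C/EBP-ATF response element, *Chac1*, *Trib3*, *Ppp1r15b* and *Herpud1* rose with NCGap, by 0.76 to 2.83, and *Nupr1* rose by 0.19 with the call that was lost under the alternatives given above, as was that of *Dnajc3*. Over all tested named genes with a promoter other than the members, 1 of 8 (12.5%) with the ER stress response element was higher with AngII after NCGap, and 14.6% of the 8448 without it. For the C/EBP-ATF response element these shares were 19.8% of 172 genes and 14.5% of 8284. No member of the 6 enzymes had a match in this window, and *Mthfd2*, *Psat1* and *Asns* rose without one; nothing follows from that about ATF4 at other positions.

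No member passed for *Alivec* knockdown at an adjusted p under 0.05, with AngII, with PBS or in the mean of both treatments. In that mean, *Chac1* passed as lower with the replicate number as a block (adjusted p = 0.016), although the numbers were not taken as pairs, and *Chac1* (0.045) and *Nupr1* (0.038) passed as lower with a prior that follows the mean signal. Among all tested probe sets, 0.818% passed for *Alivec*Gap against NCGap with AngII, 0.399% with PBS, and 2.73% in the mean of both treatments. In limma, 1 member had an unadjusted p under 0.05 with AngII, 3 with PBS and 5 in the mean of both, and without moderation of the spread these counts were 2, 3 and 4, with 0 at the adjusted threshold. The 35 estimates lay between -0.21 and 0.19 with AngII, with 31 of them negative and a median of -0.08. With PBS they lay between -0.33 and 0.11, with 23 negative and a median of -0.03. The median of all tested probe sets was 0.00 in both comparisons. The members were read on the same arrays and the share of negative estimates over all tested probe sets was not counted. The counts of signs are thus a description and not a test. Over all members, the 95% intervals reached from -0.43 to 0.38 with AngII and from -0.55 to 0.38 with PBS. These are the outermost ends over different genes and not a detection limit for any single gene. The intervals of the 1 member with AngII and the 3 with PBS that had an unadjusted p under 0.05 left out 0. The other intervals held 0, each with its own width.

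**Figure D5:**
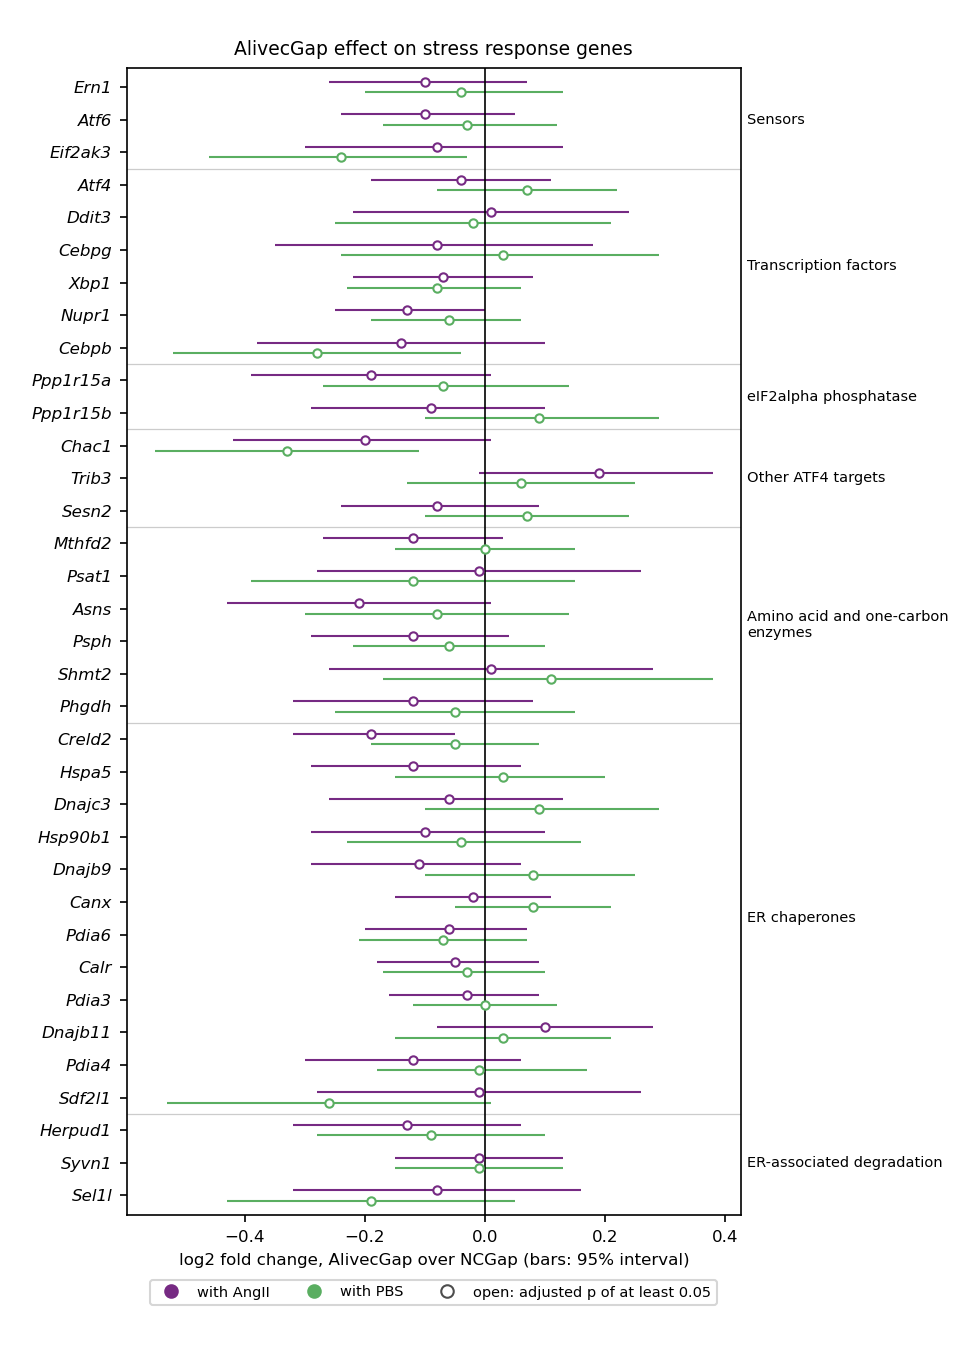
Log2 fold change of the 35 measured members, *Alivec*Gap over NCGap, with AngII (purple) and with PBS (green); bars are 95% intervals and all points are open, since no adjusted p was under 0.05. With AngII 31 of 35 estimates are negative, a count that was not tested, and *Chac1* with PBS is the lowest at -0.33.

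The study called knockdown effects by an unadjusted p under 0.05 together with a change of 1.2-fold or more. By that rule no member was called with AngII, where it took 3.24% of all tested probe sets as lower and 2.86% as higher. With PBS 2 members were called, both lower, where it took 2.69% as lower and 2.24% as higher. The count with AngII was 1 without any 1 of the *Alivec*Gap AngII arrays or without NCGap AngII replicate 1. The count with PBS was 4 without *Alivec*Gap PBS replicate 2, and 1 without *Alivec*Gap PBS replicate 1 or 3 or NCGap PBS replicate 2. *Chac1*, with the array values given above, was lower in all 3 *Alivec*Gap arrays with PBS than in any NCGap array with PBS, by 0.33 on the log2 scale (interval -0.55 to -0.11, adjusted p = 0.24). With AngII the GapmeR groups overlapped and the change was -0.20 (interval -0.42 to 0.01, adjusted p = 0.46). In the mean of both treatments *Chac1* was the member nearest to a call, at -0.27 (interval -0.42 to -0.11, adjusted p = 0.071), and it passed under the 2 alternatives named above for that mean. *Chac1* was near the signal floor with PBS, and it dropped out of the test where a log2 signal of 6 was asked of all 12 arrays. *Cebpb*, the other gene, had 5.90, 6.01 and 5.87 in *Alivec*Gap with PBS and 6.11, 6.40 and 6.10 in NCGap with PBS, a change of -0.28 (interval -0.52 to -0.04, adjusted p = 0.42) that also lay at the floor.

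In the other classes the member with the smallest knockdown p was read in the same way, and none passed. *Creld2* had the smallest p of all members with AngII, with each *Alivec*Gap array below each NCGap array and a change of -0.19 (interval -0.32 to -0.05, adjusted p = 0.26), and with PBS its change was -0.05 (interval -0.19 to 0.09). *Ppp1r15a* and *Asns* had changes of -0.19 and -0.21 with AngII, and an adjusted p of 0.47 each. For both genes the *Alivec*Gap arrays with AngII lay below those of NCGap. The share of all tested probe sets whose GapmeR groups lay apart was not counted. Lack of overlap between GapmeR groups, for any member, is thus a description and by itself not evidence of a knockdown effect. *Nupr1* had 12.44, 12.51 and 12.51 in *Alivec*Gap with AngII and 12.61, 12.60 and 12.63 in NCGap with AngII, a change of -0.13 (adjusted p = 0.44) without overlap. *Atf6* had a change of -0.10 with AngII (interval -0.24 to 0.05), also without overlap, and *Herpud1* one of -0.13 (interval -0.32 to 0.06).

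With PBS, *Eif2ak3* had a change of -0.24 (interval -0.46 to -0.03, adjusted p = 0.44), and its GapmeR groups did not overlap there. *Sdf2l1* had 8.33, 8.10 and 8.05 in *Alivec*Gap with PBS and 8.53, 8.58 and 8.16 in NCGap with PBS, a change of -0.26 (interval -0.53 to 0.01, adjusted p = 0.53) with overlap. *Sel1l*, *Psat1* and *Ppp1r15b* had changes of -0.19, -0.12 and 0.09 with PBS, with adjusted p values of 0.64, 0.82 and 0.80. *Trib3* was outside the rule and is given for its sign, with a change of 0.19 with AngII (interval -0.01 to 0.38, adjusted p = 0.45) and overlapping GapmeR groups. *Atf4* itself had changes of -0.04 with AngII (interval -0.19 to 0.11) and 0.07 with PBS (-0.08 to 0.22).

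The interaction of GapmeR and AngII, which asks whether the AngII response differed between the GapmeRs, passed for 0 of the 35 members and for 0% of all 14796 tested probe sets in limma. No member had an unadjusted p under 0.05, where 814 of all tested probe sets did. With array weights 1 member did, and without NCGap PBS replicate 3 it was 3 members, *Dnajb9*, *Ppp1r15b* and *Sdf2l1*. None of the members passed at an adjusted p under 0.05 with any array left out. The difference in AngII response was 0.13 for *Chac1* (interval -0.18 to 0.43), 0.13 for *Trib3* (-0.14 to 0.40), -0.11 for *Atf4* (-0.32 to 0.11) and -0.14 for *Hspa5* (-0.39 to 0.11). The calls of *Nupr1* and *Dnajc3* with NCGap alone are therefore not shown to differ between GapmeRs. For the knockdown with AngII, the ATF4 targets had a median of -0.12 and the chaperones of -0.06, a difference of -0.06 beside the pooled SD of 0.0421.

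Of the 31 other ATF4 pathway genes, 4 (12.9%) were lower with *Alivec*Gap in the mean of both treatments at an adjusted p under 0.05 and none was higher, where 1.65% of all tested probe sets were lower and 1.08% higher. *Gars1*, glycyl-tRNA synthetase, fell by 0.27 (adjusted p = 0.012), *Pycr1*, the last enzyme of proline synthesis, by 0.29 (0.021), and *Aldh1l2*, a mitochondrial folate enzyme, by 0.25 (0.021). *Cars1*, named here after its value was seen, fell by 0.22 (0.047). In the knockdown with AngII alone and with PBS alone, 0 of the 31 genes passed at that adjusted threshold. By the rule of the study, 6 (19.4%) were lower with AngII and none higher. That rule took 3.24% of all tested probe sets as lower and 2.86% as higher. With PBS 1 (3.23%) was lower and none higher, where 2.69% of all tested probe sets were lower and 2.24% higher. The calls of these genes were not put through the alternatives used for the members. No gene of the other ER, eIF2α or heat shock lists passed in the mean of both treatments at an adjusted p under 0.05.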

How the data were processed

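Clariom S arrays for rat were used for the RNA of 12 RVSMC samples. The deposited values were log2 signals that the authors made from the scanner files with the Robust Multichip Average (RMA) method in Partek Genomics Suite 6.6; its options and the genome build were not given in the sources used here, and the scanner files were not used here. Probe sets were named through the RefSeq gene table of GRCr8 (15049 named, 8139 not). Probe sets with a log2 signal under 6 on more than 9 arrays were left out of the tests. Group means were fitted with limma 3.58.1 in R 4.3.3 (lmFit, eBayes, prior degrees of freedom 4.08), p values were adjusted over all 14796 tested probe sets by Benjamini-Hochberg, and intervals are 95%. The fit was tested on simulated data. Members, lists, promoter elements and tests were chosen with earlier results of these data known. Full values were given for the 3 largest called AngII changes in each direction per class, for members called in a knockdown comparison or the interaction, and for the smallest knockdown p per class; of other lists, for the 3 smallest called p in each direction. Alternatives changed the moderation, the samples, the filter, the normalization, the replicate block, the array weights and single arrays. Levels of different probe sets were not compared. Each group held 3 arrays, and what limited the precision was not tested.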

Additional observations from a re-analysis of the deposited data

How the results depend on the processing

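Of 349 checks of the counts and class differences, 325 stayed within their margin and none reversed. Of 1414 checks of single members, 1380 kept their side of the threshold, 26 lost a call and 8 gained one, none with a change of sign. The losses were those of *Dnajc3*, *Eif2ak3*, *Cebpg*, *Nupr1*, *Sesn2* and *Phgdh*, and the gains those of *Chac1*, *Nupr1*, *Hsp90b1* and *Dnajb9*, all given above. The count of members lower with AngII after *Alivec*Gap (1) was 0 with arrays quantile normalized once more, and 0 to 1 with single arrays left out. Members called for the knockdown in the mean of both treatments (0) were 2 with a prior that follows the mean signal (*Chac1* at adjusted p = 0.045, and *Nupr1* at 0.038) and 1 with the replicate block (*Chac1*, 0.016), and 0 with any array left out. Members at the thresholds of the study with PBS (2) were 1 with that prior, 0 where all 12 arrays had to reach the floor, 1 when quantile normalized again, 1 when centred on the median, and 1 to 4 with single arrays left out. With AngII (0) they were 0 to 1. The ATF4 target minus chaperone difference was 0.703 with *Alivec*Gap and 0.801 with NCGap for the 6 enzymes alone, 0.784 and 0.76 with means, and 0.6 to 0.668 and 0.649 to 0.711 with single arrays left out. For the knockdown with AngII it was -0.0565 to -0.0183. In deviations from group means, arrays with the same replicate number correlated at -0.0938 to 0.323 (9 of 18 over 0.1). Among 12 arrays, 4 correlated best with their own number throughout. The highest values were those of replicate 3 among *Alivec*Gap AngII, NCGap AngII and NCGap PBS (0.309 to 0.323). The labels state no pairing and the numbers were not taken as pairs, but whether they mark a shared batch was not tested. The block changed no other count by over 1.5 times. The cause of these shifts was not tested.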
